A study of Mus musculus with 9 samples.

Results

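The 10 core cardiac transcription factors described here were Gata4, Gata6, Nkx2-5, Tbx5, Tbx20, Mef2a, Mef2c, Mef2d, Hand1 and Hand2, chosen by gene symbol from the 18738 genes of the deposited table. All 10 were listed once, and all 10 were among the 13655 genes tested, those averaging 1 TPM or more (TPM is a level per transcript length, relative to the library total). The libraries came from heart muscle cells of wild-type C57BL/6J pups on postnatal day 0, 3 libraries for each of 3 maternal diets and 9 in all. The mothers ate a high-fat (HFD), slight high-fat (sHFD) or normal diet (ND), chosen at random, throughout pregnancy. The table heads its columns HIGH, MID and CON, which were read by their names as HFD, sHFD and ND, and every direction below rests on that reading. The labels give neither the fat content of the diets nor the number of litters or pups behind a library, so p-values measure the spread between these libraries, which may be technical. The series ties the comparison of diets to a defect in cardiomyocyte proliferation.

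These factors form a network in which each binds its own DNA motif, many bind heart enhancers together, and several activate each other's genes. Gata4 and Gata6 are zinc-finger proteins, Nkx2-5 is a homeodomain protein, Tbx5 and Tbx20 are T-box proteins, the Mef2 factors are MADS-box proteins, and Hand1 and Hand2 are basic helix-loop-helix proteins. In the mouse the network specifies heart muscle in the embryo and stays active in cardiomyocytes after birth, and combinations of Gata4, Mef2c, Tbx5 and Hand2 are used to turn fibroblasts into cardiomyocyte-like cells.

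Tbx5 and Gata6 were highest in the HFD libraries. Against sHFD, Tbx5 rose 2.46-fold (TPM + 1 scale) and Gata6 rose 1.50-fold. Hand1, a trace transcript, averaged 0.683 TPM in HFD and 1.84 TPM in sHFD, and was past the threshold. It entered the test only through the sHFD libraries, where it was high, so this call is given as a description only. Against ND, neither HFD nor sHFD took any of the 10 past the threshold, an adjusted p of 0.05 in limma, in the reported fit. In HFD against ND, 2 passed under median-ratio scaling, Tbx5 and Gata6, and 1 under quantile normalization, Tbx5. The Gata6 call against sHFD was lost in some fits with a library left out. Of all genes tested, 34.2% passed in HFD against sHFD, 10.9% in HFD against ND and 0.00732% in sHFD against ND, so the factors' shares were not above these backgrounds. The other 7 factors passed in none of the 3 comparisons in the reported fit, among them Gata4 and Nkx2-5, whose libraries all lay within a 1.36-fold range.

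**Figure D1:**
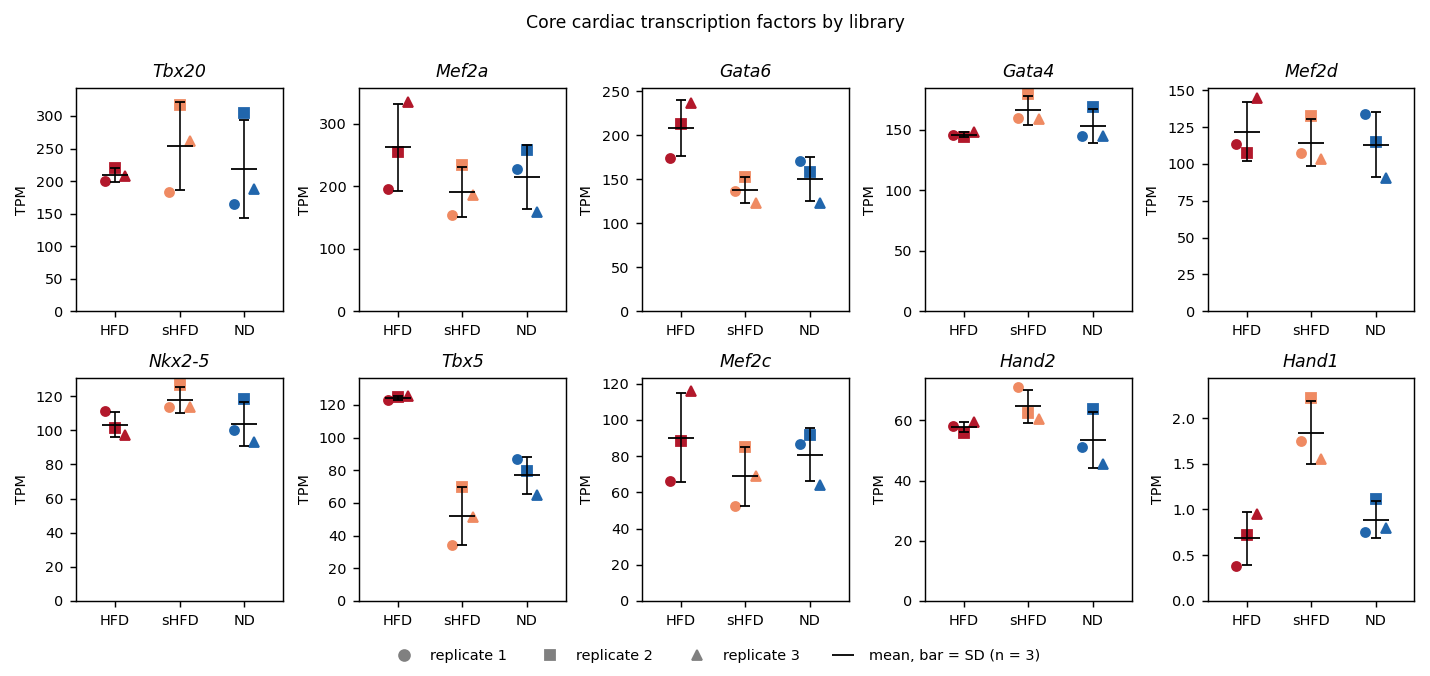
Level of each factor in TPM (vertical axes, from 0) in the 9 libraries by maternal diet. Points are libraries, with the replicate number as marker shape, and marks with bars are means and SD of 3 libraries. The 3 HFD libraries lie above every other library for Tbx5 and Gata6, and the 3 sHFD libraries lie above every other library for Hand1.

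In the data as a whole, 16722 to 17105 genes per library were above 0. ND replicate 1 stood apart from the other ND libraries. On the first principal component, with 61.2% of the variance, it lay at -24.5, the HFD libraries between -43.8 and -41.4, and the other ND and sHFD libraries between 16.0 and 37.4. Its summed level of 12 immediate-early and heat-shock genes was 9300 TPM, against 1790 and 4646 TPM in ND replicates 2 and 3. All 10 cardiomyocyte markers were present, each with a mean of at least 64.3 TPM, and their sum was 17803 to 19429 TPM in HFD, 23639 to 31473 TPM in sHFD and 14941 to 24047 TPM in ND libraries. Markers of other heart cells were present as well: the sum of 9 fibroblast markers was 9238 to 10254 TPM in HFD, 7735 to 10113 TPM in sHFD and 9454 to 11630 TPM in ND libraries, and that of 10 endothelial and endocardial markers was 3385 to 3856 TPM in HFD, 3045 to 3340 TPM in sHFD and 3115 to 4561 TPM in ND libraries. No marker of the 11 lists was at 0 in every library. Beside heart muscle, some of the 10 factors, such as Gata4, Gata6, Tbx20 and Mef2c, are known from cardiac fibroblasts or endocardium. In these bulk libraries fewer cells of a type and less RNA per cell cannot be told apart.

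Of the 10 factors, 9 were abundant. Tbx20 and Mef2a led with means of 228 and 223 TPM over the 9 libraries, followed by Gata6 (165 TPM), Gata4 (155 TPM), Mef2d (116.5 TPM), Nkx2-5 (108 TPM), Tbx5 (84.5 TPM), Mef2c (79.9 TPM) and Hand2 (58.7 TPM), while Hand1 averaged 1.14 TPM. Tbx20 stood at the 96.3 percentile of all listed genes, Hand2 at the 82.1 percentile and Hand1 at the 28.0 percentile. Only some neighbours in this order were separated in every library: Mef2a exceeded Gata6, Gata4 exceeded Mef2d and Hand2 exceeded Hand1 in 9 of 9. The order of other neighbours varied, with Tbx20 above Mef2a in 6 of 9 libraries, Gata6 above Gata4 in 4, Mef2d above Nkx2-5 in 5, Nkx2-5 above Tbx5 in 6, Tbx5 above Mef2c in 5 and Mef2c above Hand2 in 8. The highest library was less than 2 times the lowest for 6 factors, and the ratio was 2.18 for Mef2a, 2.20 for Mef2c, 3.65 for Tbx5 and 5.84 for Hand1.

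Tbx5, a T-box activator that in the mouse is enriched in the atria and left ventricle and controls conduction and calcium-handling genes, varied most among the abundant factors. It was 123, 125 and 125 TPM in the HFD libraries, 34.4, 70.0 and 51.5 TPM in the sHFD libraries and 86.7, 79.8 and 64.6 TPM in the ND libraries. Every HFD library was above every library of the other diets, with a spread of 1.06% of the mean, while sHFD and ND overlapped. Tbx5 averaged 124 ± 1.32 TPM in HFD and 52.0 ± 17.8 TPM in sHFD (SD, n = 3 each), and its log2 fold change was 1.30 (SE 0.22), with a limma adjusted p of 0.0018. It passed in each of 17 alternative fits of this comparison, with log2 fold changes of 1.04 to 1.54. Against 77.0 ± 11.3 TPM in ND, the HFD level differed by 0.70 on the log2 scale (SE 0.22), with a limma adjusted p of 0.0568. That comparison passed under median-ratio scaling and quantile normalization (limma adjusted p = 0.0222 and 0.0478), without sHFD replicate 1 or 2 (0.0354 and 0.0382) and without ND replicate 1 (0.0267), and its adjusted p was highest, 0.204, without ND replicate 3. For sHFD against ND the log2 difference was -0.61 (SE 0.22, limma adjusted p = 0.672, unadjusted p = 0.0154).

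Tbx20, a T-box factor that acts as repressor and activator in the mouse heart, was the most abundant of the 10. It was 199, 220.25 and 208 TPM in HFD, 183, 317 and 262 TPM in sHFD and 165, 305 and 188 TPM in ND libraries. The diets overlapped, and the spread was 4.98% of the mean in HFD, 26.5% in sHFD and 34.3% in ND. Its log2 fold change was -0.01 in HFD against ND (95% interval -0.52 to 0.49) and -0.24 in HFD against sHFD (-0.75 to 0.26), and in sHFD against ND it was 0.23 (-0.28 to 0.74). Within a library, the ratio of Tbx5 to Tbx20 is not changed by scaling with 1 factor per library. It was 0.616, 0.567 and 0.602 in HFD, 0.187, 0.221 and 0.197 in sHFD and 0.527, 0.262 and 0.344 in ND libraries, so that the 3 diets did not overlap in this ratio. An exact permutation test of 3 against 3 libraries, two-sided, gave p = 0.1 in each of the 3 comparisons, the smallest it can give, and 0.15 when adjusted over the 9 ratio tests made. ND replicate 1, the library near HFD on the first principal component, held the ND ratio closest to HFD.

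Gata6 and its relative Gata4, zinc-finger activators that bind the same motif and in part replace each other in the mouse heart, had different values against sHFD. Gata6 was 175, 212 and 237 TPM in HFD, 137, 152 and 123 TPM in sHFD and 171, 159 and 123 TPM in ND libraries, and the lowest HFD library was just above the highest ND library. Gata6 averaged 208 ± 31.4 TPM in HFD and 137 ± 14.5 TPM in sHFD (SD, n = 3 each), and its log2 fold change was 0.59 (SE 0.17), with a limma adjusted p of 0.0204. This call was lost without HFD replicate 2, HFD replicate 3, sHFD replicate 1 or sHFD replicate 3 (limma adjusted p = 0.0706, 0.0658, 0.0578 and 0.0830). Against 151 ± 25.0 TPM in ND, the HFD level of Gata6 differed by 0.47 on the log2 scale (SE 0.17), with a limma adjusted p of 0.0935, and it passed under median-ratio scaling and without ND replicate 1 (limma adjusted p = 0.0273 and 0.0362).

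Gata4 was 146, 144 and 148 TPM in HFD, 159.7, 179.7 and 159 TPM in sHFD and 145, 169 and 145 TPM in ND libraries. All HFD libraries were below all sHFD libraries, but the log2 difference was -0.18 (95% interval -0.48 to 0.12, limma adjusted p = 0.323), and against ND it was -0.06 (-0.36 to 0.23). The ratio of Gata6 to Gata4 was 1.20, 1.47 and 1.60 in HFD, 0.855, 0.848 and 0.778 in sHFD and 1.17, 0.938 and 0.844 in ND libraries. Gata6 thus exceeded Gata4 in all 3 HFD libraries, in 0 sHFD libraries and in ND replicate 1. The exact permutation test gave p = 0.1 for HFD against ND and for HFD against sHFD, and p = 0.3 for sHFD against ND, or 0.15 and 0.3 adjusted over the 9 ratio tests. The span of an antisense transcript, 1010001N08Rik, overlaps that of Gata6 by 504 bases, introns included, in the GENCODE annotation. Whether the counting used strand is not given in the sources used here.

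**Figure D2:**
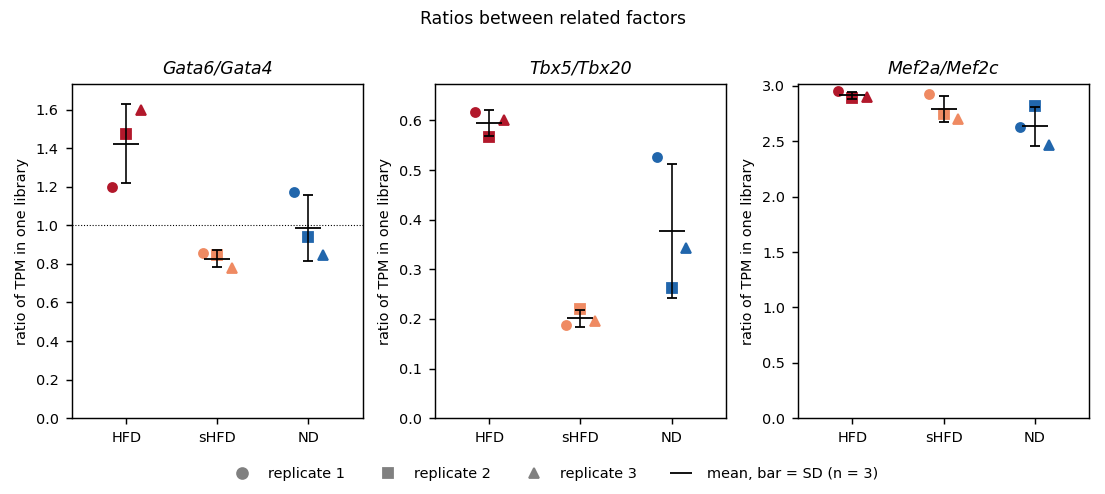
Ratio of the TPM of related factors within each library (vertical axes, from 0), by maternal diet. Points are libraries and marks with bars are means and SD of 3 libraries. Gata6 exceeds Gata4 (dotted line at 1) in the 3 HFD libraries and in ND replicate 1, Tbx5/Tbx20 does not overlap between diets, and Mef2a/Mef2c stays between 2.46 and 2.95.

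Nkx2-5, the homeodomain factor that marks cardiac muscle from its first stages, was 111, 101 and 97.3 TPM in HFD, 113, 126 and 114 TPM in sHFD and 99.8, 118 and 93.0 TPM in ND libraries. The HFD libraries lay just below all sHFD libraries and overlapped ND. Its log2 difference was 0.00 in HFD against ND (95% interval -0.32 to 0.32), -0.19 in HFD against sHFD (-0.50 to 0.13) and 0.19 in sHFD against ND (-0.13 to 0.50), none past the threshold.

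The Mef2 factors, MADS-box proteins that activate muscle structural and metabolic genes and are held in check by class IIa histone deacetylases, overlapped between all diets. Mef2a was 196, 256 and 335 TPM in HFD, 154, 233 and 186 TPM in sHFD and 228, 258 and 158 TPM in ND libraries. Mef2c was 66.5, 88.5 and 116 TPM in HFD, 52.6, 84.9 and 68.7 TPM in sHFD and 86.6, 91.5 and 64.3 TPM in ND libraries. Their ratio lay between 2.46 and 2.95 in the 9 libraries, while Mef2a ranged over 2.18-fold. It was 2.95, 2.89 and 2.90 in HFD, 2.92, 2.75 and 2.70 in sHFD and 2.63, 2.81 and 2.46 in ND libraries, so HFD lay above ND (exact permutation p = 0.1, adjusted p = 0.15 over the 9 ratio tests) and overlapped sHFD. Mef2d was 114, 107 and 145 TPM in HFD, 107, 133 and 103 TPM in sHFD and 134, 115 and 90.2 TPM in ND libraries. Mef2a made up 49.0% to 56.6% of the summed TPM of the 3 genes, Mef2d 23.8% to 34.2% and Mef2c 16.8% to 20.5%.

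In HFD against ND the log2 differences of Mef2a, Mef2c and Mef2d were 0.28, 0.14 and 0.11 (SE 0.23, 0.23 and 0.18). In HFD against sHFD Mef2a had 0.44 and Mef2c 0.38 (SE 0.23 each, limma adjusted p = 0.153 and 0.212), and both passed under median-ratio scaling (limma adjusted p = 0.0269 and 0.0358). The span of Mef2a, introns included, overlaps that of the coding gene Lysmd4 on the opposite strand by 76168 bases in GENCODE. That of Mef2d overlaps an antisense gene by 531 bases. Overlap of exons was not measured, so how far reads of such partners mix without strand is unknown.

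The Mef2a start in the RefSeq promoter table carries a match to the Mef2 family's own motif, which is why it is shown. This 30-base stretch of RefSeq, GRCm38.p6, chr7:67372841-67372870 on the minus strand, runs from before that start into the transcript, with the match in capitals at bases -2 to 8 counted from it. It is not the most upstream start, since the RefSeq gene extends to 67376456:
Mef2a: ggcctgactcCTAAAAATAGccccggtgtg
A match to the MEF2 consensus, searched on both strands, was present in 3.19% of 32851 promoter windows of 300 bases of the same table, and in none of the windows of the other members in it. It is a description of these letters and does not show that a factor binds there. Promoter windows matched 6 of the 10 factors, Nkx2-5, Tbx20, Mef2a, Mef2c, Mef2d and Hand2.

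Hand2, a basic helix-loop-helix factor of the right ventricle and outflow tract in the mouse embryo, was 58.1, 55.9 and 59.3 TPM in HFD, 70.9, 62.6 and 60.5 TPM in sHFD and 51.3, 63.7 and 45.6 TPM in ND libraries. The HFD libraries lay just below all sHFD libraries, with a log2 difference of -0.16 (95% interval -0.50 to 0.19, limma adjusted p = 0.462) that was 0.0097 under median-ratio scaling. Against ND the log2 difference was 0.12 for HFD (-0.22 to 0.46) and 0.28 for sHFD (-0.06 to 0.62). The span of the long noncoding antisense gene Hand2os1, introns included, overlaps that of Hand2 by 3251 bases. Its exons cover all 250 bases before the Hand2 start. Overlap with the exons of Hand2 was not measured, so how far their reads mix without strand is unknown.

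The 250 bases before the Hand2 start, RefSeq GRCm38.p6 chr8:57320733-57320982 on the plus strand, are shown because Hand2 and its antisense partner share them. Capitals mark matches to the E-box CANNTG at -246 and -235, to the NK2 motif AAGTG at -235 on the minus strand, inside the second E-box, and to the GATA motif AGATAA at -172 on the minus strand:
Hand2: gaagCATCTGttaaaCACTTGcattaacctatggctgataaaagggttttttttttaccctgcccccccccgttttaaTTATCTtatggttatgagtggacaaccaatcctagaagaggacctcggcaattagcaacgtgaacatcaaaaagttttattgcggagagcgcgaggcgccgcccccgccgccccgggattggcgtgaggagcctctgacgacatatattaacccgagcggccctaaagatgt
In all promoters of the table, 250 bases before the start held an AGATAA match in 9.99%, an AAGTG match in 40.7% and a CANNTG match in 66.2%, searched on both strands.

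Hand1, the relative of Hand2 that marks the left ventricle of the mouse embryo, was listed at 0.38, 0.72 and 0.95 TPM in HFD, 1.75, 2.22 and 1.55 TPM in sHFD and 0.75, 1.12 and 0.80 TPM in ND libraries. All sHFD libraries were above all others, while HFD and ND overlapped. Hand1 averaged 0.683 ± 0.287 TPM in HFD and 1.84 ± 0.344 TPM in sHFD (SD, n = 3 each), and its log2 fold change was -0.76 (SE 0.22), with a limma adjusted p of 0.0176, on the TPM + 1 scale, which understates the change of so low a gene. It passed the filter of a mean of 1 TPM only through the sHFD libraries, and it was lost without HFD replicate 1, HFD replicate 2 or sHFD replicate 2 (limma adjusted p = 0.0762, 0.0510 and 0.0610). In sHFD against ND its log2 difference was 0.59 (SE 0.22, limma adjusted p = 0.672, unadjusted p = 0.0179).

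**Figure D3:**
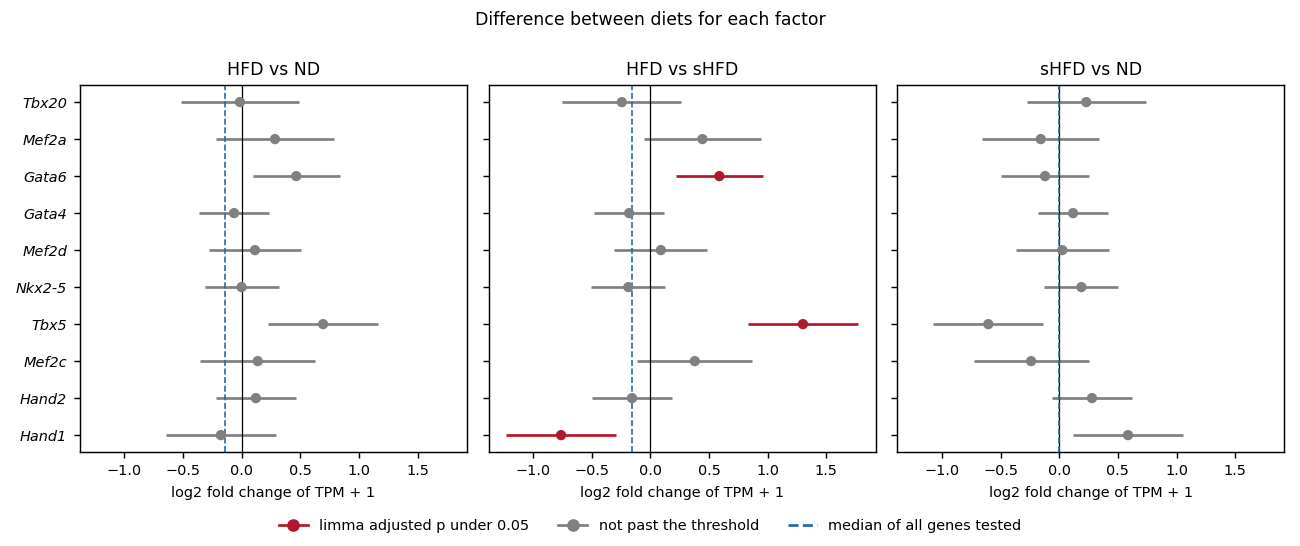
Log2 fold change of TPM + 1 (horizontal axes) for each factor in HFD against ND, HFD against sHFD and sHFD against ND, with 95% intervals from limma on all 9 libraries. Red marks the genes past an adjusted p of 0.05 and the dashed line is the median of all genes tested. Tbx5, Gata6 and Hand1 are past the threshold in HFD against sHFD, and no factor is past it in the comparisons with ND. Hand1 entered the test only through its high sHFD libraries, so its mark is a description only.

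Read against all genes, the shares of factors past the threshold were not high. In HFD against ND 0 of 10 passed limma's test, and 2 had an unadjusted p under 0.05, beside 10.9% of all 13655 genes past the threshold (1.28% higher, 9.59% lower) and 29.8% with an unadjusted p under 0.05. In HFD against sHFD 3 of 10 passed, Tbx5 and Gata6 higher and Hand1, with the limit given above, lower, beside 34.2% of all genes, 10.3% higher and 23.9% lower. In sHFD against ND 0 of 10 passed limma's test, beside 0.00732% of all genes, which is 1 gene. There 2 factors, Tbx5 and Hand1, had an unadjusted p under 0.05, beside 7.36% of all genes. The libraries of HFD and ND did not overlap for 2 factors, both higher in HFD, where 27.9% of all genes did not overlap, 5.00% higher and 22.9% lower. HFD and sHFD did not overlap for 6 factors, 2 higher and 4 lower in HFD, with Hand1 among the lower. Of all genes, 51.3% did not overlap there, 16.6% higher and 34.7% lower. sHFD and ND did not overlap for 1 factor, Hand1, higher in sHFD, beside 9.40% of all genes (4.50% higher, 4.90% lower). Hand1 entered the test only through its high sHFD libraries, so its part in these counts is a description only. The comparisons share libraries and are not independent of each other.

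The median log2 fold change of the 10 factors was 0.12 in HFD against ND, beside -0.14 over all genes, and -0.03 in HFD against sHFD, beside -0.16 over all genes. Median-ratio scaling moved the medians of all genes to 0.01 and -0.01. Relative to the medians of all genes before scaling, Tbx5 lay 0.83 higher and Gata6 0.60 higher in HFD against ND, and 1.46 and 0.75 higher in HFD against sHFD. With this scaling 642 of 1639 genes that passed in HFD against ND were higher, in place of 175 of 1484, and 2608 of 5208 in HFD against sHFD, in place of 1406 of 4665. Under quantile normalization the counts were 427 of 1064 in HFD against ND and 2401 of 4808 in HFD against sHFD.

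Several marker lists differed in level beside the Tbx5 and Gata6 values. All 12 immediate-early and heat-shock genes, a class that responds fast to stress, were higher in HFD than in sHFD, with sums of 6508 to 10677 TPM in HFD, 1729 to 1920 TPM in sHFD and 1790 to 9300 TPM in ND libraries. Of 8 atrial markers, 2 were higher and 3 lower in HFD than in sHFD, and 0 were higher and 3 lower in HFD than in ND. The sums of these atrial markers were 5625 to 10159 TPM in HFD, 4016 to 7792 TPM in sHFD and 6286 to 8497 TPM in ND libraries. Of 10 cardiomyocyte markers 3 were lower in HFD than in sHFD, of 9 fibroblast markers 0 changed by limma's test, and of 10 immune markers 10 were lower in HFD than in ND and 6 lower than in sHFD. Of 6 epicardial markers, 2 were higher and 1 lower in HFD than in sHFD, with sums of 437 to 459 TPM in HFD, 266 to 438 TPM in sHFD and 304 to 364 TPM in ND libraries. In the same comparison 1 smooth muscle and pericyte marker was higher and 5 lower, 1 conduction system marker was higher and 1 lower, 1 ventricular marker was higher and 3 lower, and 6 red cell markers were lower. Some of these counts depended on scaling. Immune markers lower in HFD than in ND numbered 8 under median-ratio scaling and 5 under quantile normalization. Under median-ratio scaling, HFD against sHFD had 2 red cell and 1 cardiomyocyte marker lower, 1 ventricular marker higher and 1 lower, and 4 epicardial markers higher and 1 lower, while all 12 immediate-early and heat-shock genes were higher under both scalings. Of all genes, 10.3% were higher and 23.9% lower in HFD against sHFD, and 1.28% and 9.59% in HFD against ND. The marker lists are not separate from the lists of partners and targets below. Irx4, Hey2, Myh7, Myl2 and Myl3 of the ventricular list and Gja5, Bmp10 and Myl7 of the atrial list are counted there again. So are Tnnt2, Tnni3, Ryr2, Pln, Myh6 and Myl3 of the cardiomyocyte list. Tbx3 of the conduction system, Tbx18 of the epicardial and Nfatc1 of the endothelial and endocardial list recur as well. The part of the marker lists in the Tbx5 and Gata6 differences was not tested.

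**Figure D4:**
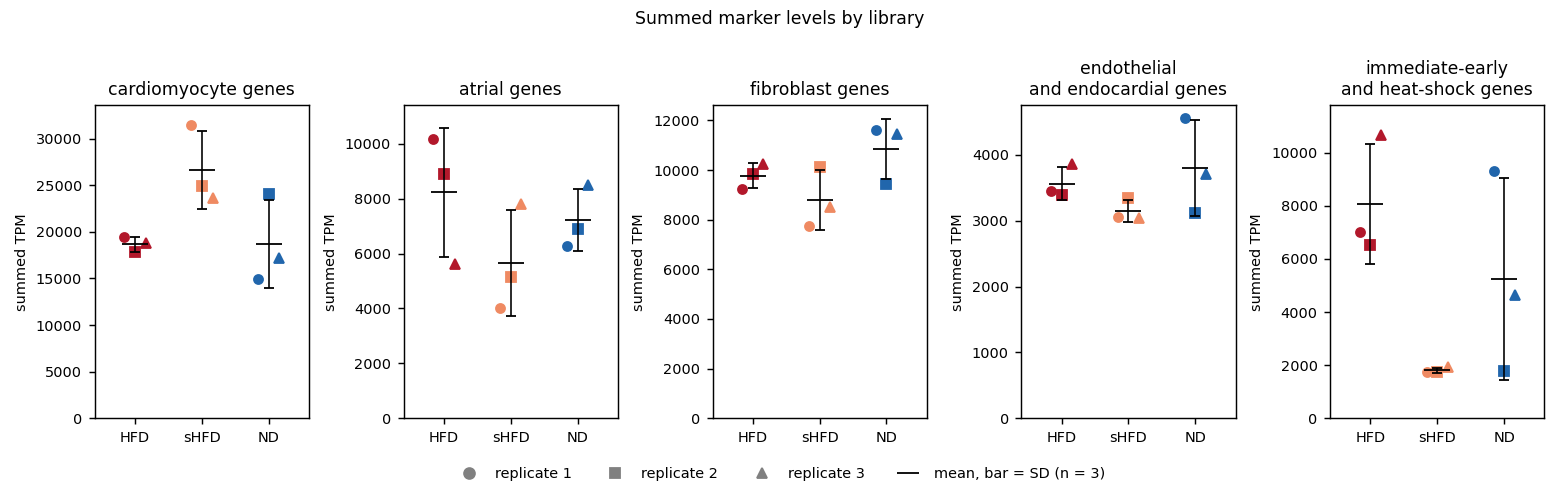
Summed TPM of marker genes (vertical axes, from 0) for cardiomyocytes, atrial muscle, fibroblasts, endothelium and endocardium, and immediate-early and heat-shock genes in the 9 libraries by maternal diet. Points are libraries and marks with bars are means and SD of 3 libraries. The HFD libraries and ND replicate 1 have the 4 highest immediate-early and heat-shock sums.

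Among 37 other cardiac transcription factors and cofactors in the table, 35 could be tested. In HFD against ND 1 rose and 5 fell by limma's test, beside 1.28% and 9.59% of all genes. In HFD against sHFD 2 rose and 7 fell, beside 10.3% and 23.9% of all genes. In sHFD against ND 0 passed, beside 0.00732% of all genes, with 4 at an unadjusted p under 0.05, beside 7.36%. The median log2 fold change of the list was -0.18, -0.09 and 0.02 in these comparisons, beside -0.14, -0.16 and 0.00 over all genes. The split depended on scaling: under median-ratio scaling 3 rose and 4 fell in HFD against ND and 6 rose and 6 fell in HFD against sHFD. Under quantile normalization 2 rose and 3 fell in HFD against ND and 5 rose and 6 fell in HFD against sHFD.

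Smarcd3, a chromatin remodelling subunit known to work with Tbx5, Gata4 and Nkx2-5 in the mouse embryo, was 42.0, 41.7 and 43.1 TPM in HFD, 89.1, 98.35 and 89.0 TPM in sHFD and 59.4, 93.6 and 71.3 TPM in ND libraries. It was lower in every HFD library than in any other library, with log2 fold changes of -0.78 against ND and -1.11 against sHFD (SE 0.17 each, limma adjusted p = 0.017 and 0.00134). Irx4, a homeobox factor of ventricular muscle, averaged 15.0 ± 0.92 TPM in HFD and 39.8 ± 8.56 TPM in sHFD (log2 fold change -1.33, SE 0.25, limma adjusted p = 0.00273), and ND replicate 1 was at 14.3 TPM, below the other ND libraries at 31.1 and 18.1 TPM. Of the Notch-controlled repressors named by the rule, Heyl fell in HFD against sHFD (log2 fold change -1.49, SE 0.18, limma adjusted p = 0.000696) and Hey1 rose (1.84, SE 0.34, limma adjusted p = 0.00264). Hey1 was 121 TPM in ND replicate 1, within the HFD range of 103 to 201 TPM, and 45.9 and 49.5 TPM in ND replicates 2 and 3.

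Srf, the serum response factor that shares cardiac targets with Gata4 and Nkx2-5, rose in HFD to 137 ± 17.7 TPM, against 92.9 ± 6.88 TPM in ND (SD, n = 3 each, log2 fold change 0.55, SE 0.15, limma adjusted p = 0.0333). Against sHFD Srf did not pass (log2 difference 0.33, SE 0.15, limma adjusted p = 0.0958). Its coactivator gene Mrtfa fell in HFD against ND (log2 fold change -0.71, SE 0.20, limma adjusted p = 0.0368), and so did Nfatc4, of the calcineurin-controlled family that binds Gata4 (-1.27, SE 0.23, limma adjusted p = 0.0105). Mrtfb and Myocd, of the same list, had log2 differences of 0.22 and 0.54 and did not pass (limma adjusted p = 0.475 and 0.155). Of the 9 fits of HFD against ND with a library left out, Srf passed in 3, Mrtfa in 4, Nfatc4 and Smarcd3 in 6 each and Heyl in 7, and Mrtfa did not pass under median-ratio scaling, under quantile normalization or with no filter (limma adjusted p = 0.0534, 0.0975 and 0.0614). With only the 6 libraries compared, Smarcd3, Srf and Mrtfa did not pass in HFD against ND (limma adjusted p = 0.0527, 0.0824 and 0.0673). Hdac9, a class IIa deacetylase that represses Mef2 factors, was the other partner past the threshold in HFD against ND (log2 fold change -0.95, SE 0.28, limma adjusted p = 0.0491). This call was close to the threshold, and Hdac9 was not followed in the alternative fits. Against sHFD it did not pass (-0.73, SE 0.28, limma adjusted p = 0.0616). Hdac4, Hdac5 and Hdac7, of the same class, did not pass in HFD against ND (limma adjusted p = 0.537, 0.105 and 0.845). Zfpm2, the Gata4 cofactor also called FOG2, had a log2 difference of -0.25 (SE 0.22, limma adjusted p = 0.461).

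**Figure D5:**
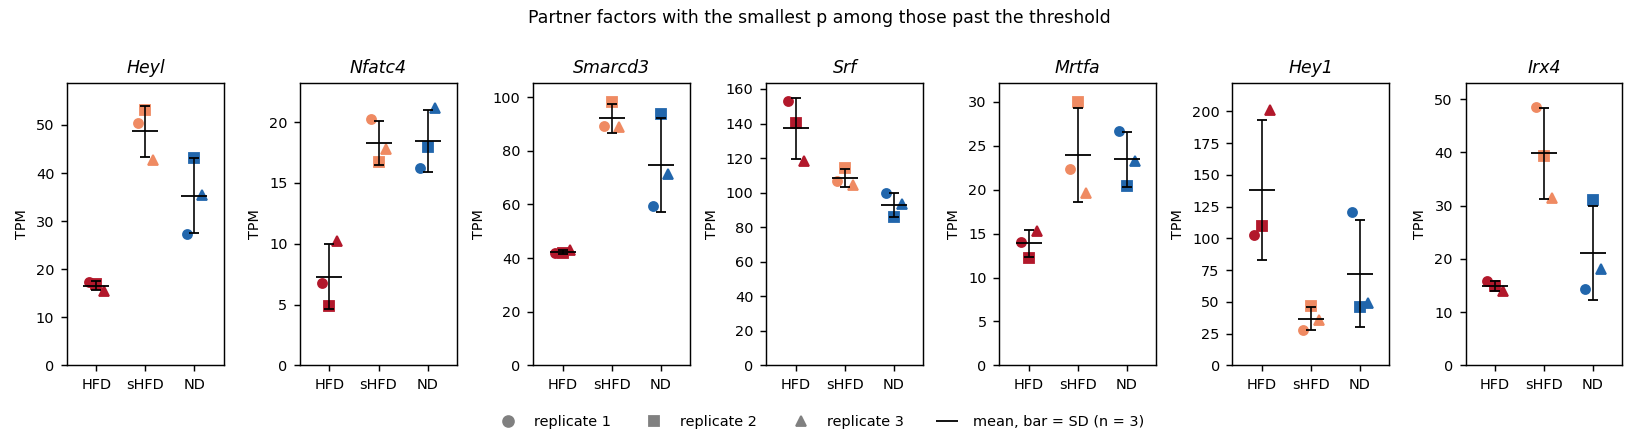
Level in TPM (vertical axes, from 0) of the partner factors with the smallest p among those past the threshold in HFD against ND or HFD against sHFD, in the 9 libraries by maternal diet. Points are libraries and marks with bars are means and SD of 3 libraries. Heyl, Nfatc4, Smarcd3 and Mrtfa are lower in all 3 HFD libraries than in any other library, and Srf is higher.

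Known cardiac target genes of the 10 factors, 27 in number and all tested, were called in both directions. In HFD against ND 2 rose and 1 fell by limma's test, beside 1.28% and 9.59% of all genes. In HFD against sHFD 2 rose and 8 fell, beside 10.3% and 23.9% of all genes. There the counts were 2 and 5 under median-ratio scaling and 2 and 9 under quantile normalization. In sHFD against ND 0 passed, beside 0.00732% of all genes, with 9 at an unadjusted p under 0.05, beside 7.36%. The list median was 0.10, -0.38 and 0.49 in these comparisons, beside -0.14, -0.16 and 0.00 over all genes. Nppb, the B-type natriuretic peptide, and Myh7, the beta-myosin heavy chain, were the genes that rose in both HFD comparisons. Nppb was 854, 935 and 488 TPM in HFD, 256, 102 and 221 TPM in sHFD and 79.1, 40.1 and 98.4 TPM in ND libraries, higher in every HFD library than in any other. Myh7 was 1214, 1183 and 948 TPM in HFD, 258, 118 and 164 TPM in sHFD and 507, 193 and 213 TPM in ND libraries, with a log2 fold change of 2.69 against sHFD (SE 0.34, limma adjusted p = 0.000703). Its call against ND was lost without HFD replicate 2 or ND replicate 3 (limma adjusted p = 0.0535 and 0.0602). Gja5, connexin 40 and in the mouse a direct Tbx5 and Nkx2-5 target, was lowest in the HFD libraries. It was 21.8, 24.0 and 24.6 TPM in HFD, 88.1, 147 and 164 TPM in sHFD and 40.1, 162 and 103 TPM in ND libraries, a log2 fold change of -2.41 against sHFD and -1.86 against ND (SE 0.38 each, limma adjusted p = 0.00151 and 0.0142). The HFD against ND call of Gja5 was lost without HFD replicate 1, HFD replicate 2 or ND replicate 3, with a highest limma adjusted p of 0.0762. Kcne1, a potassium channel subunit, fell in HFD against sHFD (log2 fold change -1.67, SE 0.35, limma adjusted p = 0.0042). Nppa, a target of Gata4, Nkx2-5 and Tbx5 in the mouse, had log2 differences of 0.55 against ND and 0.54 against sHFD (SE 0.29 each, limma adjusted p = 0.222 and 0.165).

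The 250 bases before the most upstream starts of Gja5, Myh7 and Nppa in the promoter table are shown because these targets represent a gene that fell, one that rose and one that did not pass. They come from RefSeq, GRCm38.p6, at chr3:97032152-97032401 on the plus strand, chr14:54994627-54994876 on the minus strand and chr4:148000472-148000721 on the plus strand, and none overlaps an annotated exon. Capitals mark matches on either strand to AAGTG (NK2), CANNTG (E-box) and AGGTGT (T-box):
Gja5: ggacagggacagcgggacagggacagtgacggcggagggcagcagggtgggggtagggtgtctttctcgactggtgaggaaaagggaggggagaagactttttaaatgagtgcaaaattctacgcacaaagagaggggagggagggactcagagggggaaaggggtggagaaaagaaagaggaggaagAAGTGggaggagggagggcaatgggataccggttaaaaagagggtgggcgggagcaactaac
Myh7: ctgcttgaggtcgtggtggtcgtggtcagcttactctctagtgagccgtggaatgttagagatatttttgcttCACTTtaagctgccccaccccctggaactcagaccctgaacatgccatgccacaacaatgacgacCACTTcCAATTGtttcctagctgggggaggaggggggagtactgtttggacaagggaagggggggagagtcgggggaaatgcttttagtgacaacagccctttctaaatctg
Nppa: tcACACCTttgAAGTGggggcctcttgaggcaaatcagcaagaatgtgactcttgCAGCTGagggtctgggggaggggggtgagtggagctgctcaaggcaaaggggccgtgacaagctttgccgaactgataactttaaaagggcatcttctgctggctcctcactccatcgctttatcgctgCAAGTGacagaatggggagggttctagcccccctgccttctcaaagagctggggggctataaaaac
Gja5 held 1 match, AAGTG at -62, and Myh7 held AAGTG matches at -177 and -112, both on the minus strand, and an E-box at -106. Nppa held a T-box match at -248 on the minus strand, AAGTG at -239 and, inside an E-box, at -65, and another E-box at -195. AGGTGT was present in 11.8% of all promoter windows of this length, and these matches are letters in a window, not shown sites.

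Genes with a profile closest to a factor were sought among 10958 named genes averaging 5 TPM or more, by the root-mean-square difference of centred log2(TPM + 1) values over the 9 libraries. For Tbx5 these were Terf1, a telomere-binding protein (difference 0.15), and F2r, a thrombin receptor (0.17), beside a spread of Tbx5 around its own mean of 0.59. F2r was 468, 542 and 584 TPM in HFD, 178, 270.45 and 223 TPM in sHFD and 468, 315 and 293 TPM in ND libraries. For Gata6 they were Prr14l and Dbr1 (difference 0.08 each, own spread 0.31), and for Mef2a they were Gabpa, an ETS factor, and Pggt1b (0.05 and 0.06, own spread 0.34). For Tbx20 they were Pla2g4a and Polr3k (0.09 and 0.10, own spread 0.31). Mef2c was closest to Zfr and Agfg1, Mef2d to Mau2 and Usp19, Hand2 to Fig4 and Habp4, Hand1 to Zfp346 and Cebpg, and Nkx2-5 to Sema4b and Psmd2. Psmd2 was also the closest gene to Gata4, followed by Fbxo10, at differences of 0.05 each beside an own spread of 0.11.

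In GRCm38, RefSeq places Tbx5 on chromosome 5 (119796514 to 119885220), Gata6 on chromosome 18 (11052510 to 11085636), Gata4 on chromosome 14 (63198914 to 63271712), Hand1 on chromosome 11 (57828713 to 57832147), Tbx20 on chromosome 9 (24720812 to 24774303), Nkx2-5 on chromosome 17 (26838664 to 26844988), Mef2a on chromosome 7 (67231163 to 67376456), Mef2c on chromosome 13 (83504017 to 83667079), Mef2d on chromosome 3 (88141941 to 88172091) and Hand2 on chromosome 8 (57320983 to 57324517).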

How the data were processed

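RNA of newborn mouse cardiomyocytes was selected for mRNA and sequenced, per the labels' protocols, and the authors deposited 1 table of TPM values for 18738 mRNA genes in 9 libraries. The submitters' processing notes name RSEM 1.3.1 and GRCm38 without their role. Aligner, annotation and strand setting were not given in the sources used. Columns HIGH, MID and CON were read as HFD, sHFD and ND, with their replicate numbers, and 0 columns were left unused. TPM keeps no read number, so depth is unknown and no counting interval is given.

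Values were used as log2(TPM + 1) with no further scaling. A linear model with 3 diets was fitted to 9 libraries and the 13655 genes averaging 1 TPM or more (limma 3.58.1, R 4.3.3, intensity trend, 6 residual degrees of freedom, two-sided p adjusted by Benjamini-Hochberg over all genes, threshold 0.05). The fit was tested on simulated data. Alternatives changed the pseudocount (0.1), the filter, the scaling, the libraries fitted, the variance trend and the replicate block. Ratios of members were compared by exact permutation tests, which cannot go below 0.1.

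The members, gene lists, markers and the rule for named genes were chosen with earlier results of these data known. Named genes were all 10 members and the 2 most similar profiles per member. To these came up to 5 genes per context list and comparison with the smallest p past the threshold. Hdac9, Zfpm2 and Nppa were added after their values were seen, as were the list counts under the scalings. Mrtfb, Myocd, Hdac4, Hdac5 and Hdac7 are also given with values outside that rule. 1 gene that the rule names is not reported here. Mrtfa and Mrtfb were also listed by older symbols. Positions came from RefSeq (GRCm38.p6) by Entrez identifier, overlaps and exons from GENCODE M21.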

Additional observations from a re-analysis of the deposited data

How the results depend on the processing

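Each comparison was refitted with 17 alternatives. Of 507 member values, 490 kept their sign, and the 17 that did not belong to differences that had not passed. The count of members past the threshold in HFD against ND, 0 in the reported fit, was 2 under median-ratio scaling (Tbx5 and Gata6), 1 under quantile normalization (Tbx5) and 0 to 2 with a library left out. In HFD against sHFD, 3 in the reported fit, it was 5 under median-ratio scaling, with Mef2a and Mef2c added, and 1 to 3 with a library left out. Where Hand1 is among the members counted, its part is a description only, as above. In sHFD against ND it was 0 in every fit. Under median-ratio scaling the log2 fold changes that changed sign were 0.092 for Gata4 and 0.14 for Tbx20 in HFD against ND, and 0.0097 for Hand2 in HFD against sHFD, and under quantile normalization 0.086 for Hand1 in HFD against ND. With a library left out, HFD against ND ranged from -0.10 to 0.0088 for Gata4, -0.074 to 0.10 for Nkx2-5, -0.19 to 0.25 for Tbx20, -0.058 to 0.34 for Mef2c and -0.038 to 0.25 for Mef2d, and Mef2d ranged from -0.13 to 0.16 in sHFD against ND and from -0.041 to 0.20 in HFD against sHFD. The cause of these changes was not tested. Over all genes, HFD against ND passed 1484 genes, 763 with no filter, 420 with only the 6 libraries compared and 32 to 3842 with a library left out, HFD against sHFD passed 4665 and 2696 to 5458, and sHFD against ND passed 1, 0 to 2 in the fits with 9 or 6 libraries and 0 to 360 with a library left out. Replicate numbers recur across diets, but libraries of the same number deviated together in only some pairs. Correlations ran from -0.29 to 0.41, were over 0.1 in 4 of 9 pairs and were best with the own number in 4 of 9. Deviations from a mean of 3 libraries cannot exclude a pairing. The replicate block gave 0, 0 and 3 members past the threshold in HFD against ND, sHFD against ND and HFD against sHFD, and 1686, 0 and 4722 genes over all. Hand1 could not be fitted with a minimum mean of 5 TPM. Depth is unknown, which limits Hand1, near 1 TPM, most.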
